A study of Mus musculus with 2 samples.

Results

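The 10 genes described here encode proteins of the PIWI-interacting RNA (piRNA) pathway and RNA regulators of germ cells: Mael, Dazl, Ddx4, Piwil2, Tdrd1, Tdrkh, Mov10l1, Asz1, Tex19.1 and Stk31. The genes were chosen with earlier results of these data known. Their probe sets were taken by gene symbol, as all that the platform annotation pairs with 1 of these symbols alone. This gave 13 probe sets for the 10 genes, out of 18193 genes named on the array. The short oligonucleotides of a probe set are summarised into 1 signal. Expression was measured on Affymetrix MOE430 2.0 arrays in mouse embryonic stem (ES) cells, with 1 array labelled as the control of the Eed KO and 1 array labelled Eed KO. The series' design text calls the knockout constitutive. Eed is a subunit of Polycomb repressive complex 2 (PRC2), and its own signal did not bear out the label (values below), so that "Eed KO array" means here the array labelled so. The strain, the growth conditions, the clones and the way the gene was disrupted are not given in the labels. With 1 array a group no difference has a replicate check, no SD could be given and no test was made.

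piRNAs are small RNAs bound by PIWI proteins, and they guide the silencing of transposons in the germ line. Tudor domain proteins, RNA helicases and mitochondrial scaffold proteins collect PIWI proteins in granules (nuage), where piRNA precursors are processed. Many of these genes have CpG-rich promoters, are kept silent outside germ cells by DNA methylation and by a variant PRC1 complex that contains E2F6, MGA and MAX, and some of them are active in ES cells. MGA and MAX bind the E-box CACGTG.

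Sequences upstream of the genes were read from the RefSeq promoter table (build GRCm38.p6), which matched 9 of the 10 members. The stretch examined was the 250 bases before the annotated start, with 1 window for each gene (the first listed). Of the 9 members, 5 held the hexamer CACGTG, which reads the same on both strands: Mael, Mov10l1, Stk31, Ddx4 and Tdrd1. Among all 32851 windows of this length 6.02% held it, and among the 11153 windows with an observed over expected CpG ratio of at least 0.6 it was 9.49%. The heptamer GGCGGGA, a form of the E2F element, was searched on both strands and stood in 2 of the 9 members, Mael and Ddx4, against 9.75% of all windows and 21.9% of those with the CpG ratio above, and did not overlap the hexamer there. The 4 stretches below show 2 members that were higher in the Eed KO and hold the hexamer (Mael and Stk31), 1 that was higher without it (Dazl) and 1 that holds it and was not higher (Ddx4). Capitals mark CACGTG.
Mael, chr1:166238745-166238994, minus strand: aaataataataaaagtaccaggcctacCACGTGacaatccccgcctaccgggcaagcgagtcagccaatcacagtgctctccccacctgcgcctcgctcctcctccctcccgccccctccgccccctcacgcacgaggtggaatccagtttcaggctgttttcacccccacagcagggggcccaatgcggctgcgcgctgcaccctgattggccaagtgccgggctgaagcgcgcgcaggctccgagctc
Stk31, chr6:49395289-49395538, plus strand: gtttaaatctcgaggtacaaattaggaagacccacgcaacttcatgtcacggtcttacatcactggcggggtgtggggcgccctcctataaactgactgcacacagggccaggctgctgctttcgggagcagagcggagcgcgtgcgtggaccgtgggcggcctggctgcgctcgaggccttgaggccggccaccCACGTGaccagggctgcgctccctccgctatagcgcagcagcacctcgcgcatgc
Dazl, chr17:50293621-50293870, minus strand: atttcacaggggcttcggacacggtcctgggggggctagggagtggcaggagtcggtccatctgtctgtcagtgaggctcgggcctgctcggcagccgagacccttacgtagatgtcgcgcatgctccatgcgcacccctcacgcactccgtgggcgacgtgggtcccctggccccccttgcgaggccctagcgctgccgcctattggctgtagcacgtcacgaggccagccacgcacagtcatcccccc
Ddx4, chr13:112652311-112652560, minus strand: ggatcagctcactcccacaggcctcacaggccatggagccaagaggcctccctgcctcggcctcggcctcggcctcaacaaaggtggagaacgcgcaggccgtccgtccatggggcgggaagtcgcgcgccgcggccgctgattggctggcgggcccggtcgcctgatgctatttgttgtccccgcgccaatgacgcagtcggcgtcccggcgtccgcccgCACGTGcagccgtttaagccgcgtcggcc
The hexamer began 223 bases before the start in Mael, 55 in Stk31, 29 in Ddx4, 246 in Mov10l1 and 11 in Tdrd1. These are letter matches, and binding was not measured.

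Most member windows were rich in CpG. The observed over expected CpG ratio was at least 0.6 in 8 of the 9 members, against 63.2% of the 11097 measured genes with a window. It ran from 0.53 in Tdrd1 to 1.004 in Ddx4, with a median of 0.75 against 0.70 over measured genes. The Tdrd1 value depended on the window taken. Window 2 of Tdrd1 had a ratio of 0.86 and the hexamer 77 bases before its start. Window 3 had a ratio of 0.25 and no hexamer. Ddx4 had 31 CpGs in its 250 bases, Stk31 21, Dazl 20 and Mael 18, against a median of 15 over measured genes. The members' GC content lay between 52.0% (Asz1) and 70.4% (Ddx4).

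**Figure D1:**
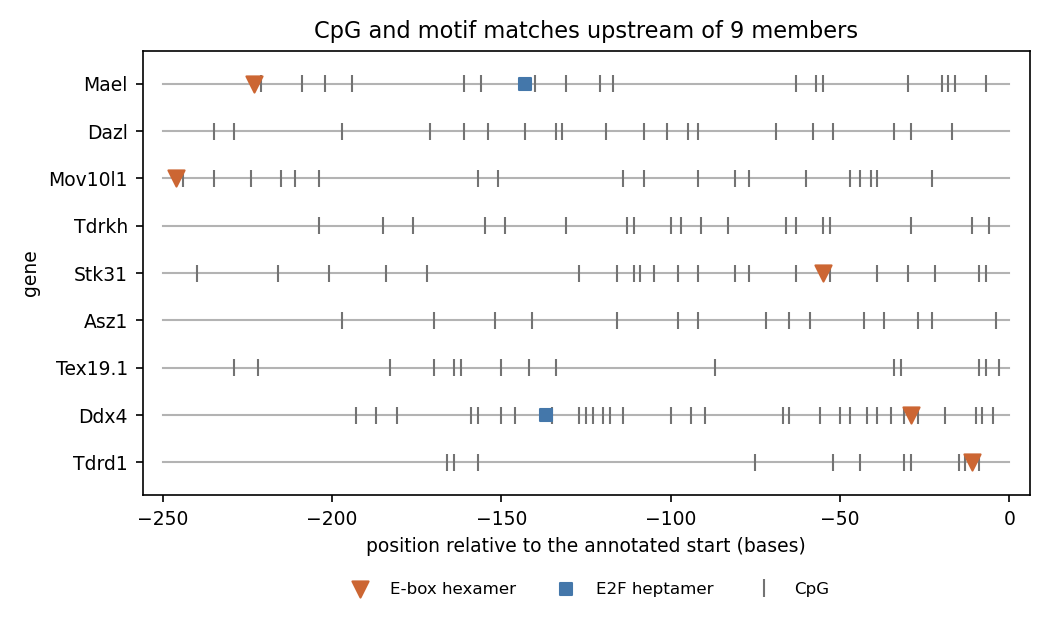
Positions of CpGs (ticks), the E-box hexamer (triangles) and the E2F heptamer (squares) in the 250 bases before the annotated start of 9 members. The x axis is the distance from the start in bases and each line is 1 gene. 5 members hold the hexamer, at 11 to 246 bases from the start, and 2 the heptamer.

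Eed itself lay within 2-fold on the array labelled Eed KO, with a ratio whose sign turned between scalings. Its main probe set, 1448653_at, read 10101 on the control array and 11456 on the Eed KO array (log2 ratio 0.18, between -0.13 and 0.32 over 10 alternative settings), and the labels do not say which part of the gene is missing. ES cell markers were detected on both arrays: 10 of 10 were measured and 0 differed by 2-fold with the signals as deposited. Nanog was 1.80-fold and Zfp42 1.72-fold higher as deposited, and Sox2 was 1.39-fold lower. Utf1, 1.63-fold lower as deposited, was at least 2-fold lower in 2 of 10 alternative settings. At a call size of 1.5-fold 2 of these markers would count as higher and 1 as lower. Deposited signals were already scaled, and their median over the whole array was 87.4 for the control and 108.1 for the Eed KO. Signals under a floor of 61.3, the 40th percentile of all signals, were set to it, and a gene above it on at least 1 array counted as measured. Different probe sets of 1 gene gave log2 ratios with an SD of 0.46 at signals under 128, 0.42 from 128 to 512, 0.29 from 512 to 2048 and 0.20 above 2048. This SD covers technical and isoform spread only.

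Of the 10 members, 9 were measured, all of them above the floor on both arrays, so that none passed the filter through 1 array alone. On the Eed KO array 7 of these 9 were higher by 2-fold or more, 0 were lower by as much and 2 lay within 2-fold. The background over all 13794 measured genes was 10.8% higher by 2-fold or more and 3.27% lower by as much. As the members were chosen with earlier results of these data known, their share describes these genes only, not the pathway. The members' median fold was 2.83 (log2 ratio 1.501), against a log2 ratio of 0.12 as the median over all measured genes. Once both arrays had equal medians, 6 members were higher and 0 lower. The share of measured genes that was higher was then 6.35%, and 7.49% were lower, around a median over all genes of -0.16. Calls depended on signal across the array: below a mean signal of 613, which is 10 floors, 14.8% of genes were higher, against 5.1% of brighter genes. Among the members, 5 of 6 dimmer and 2 of 3 brighter genes were higher.

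**Figure D2:**
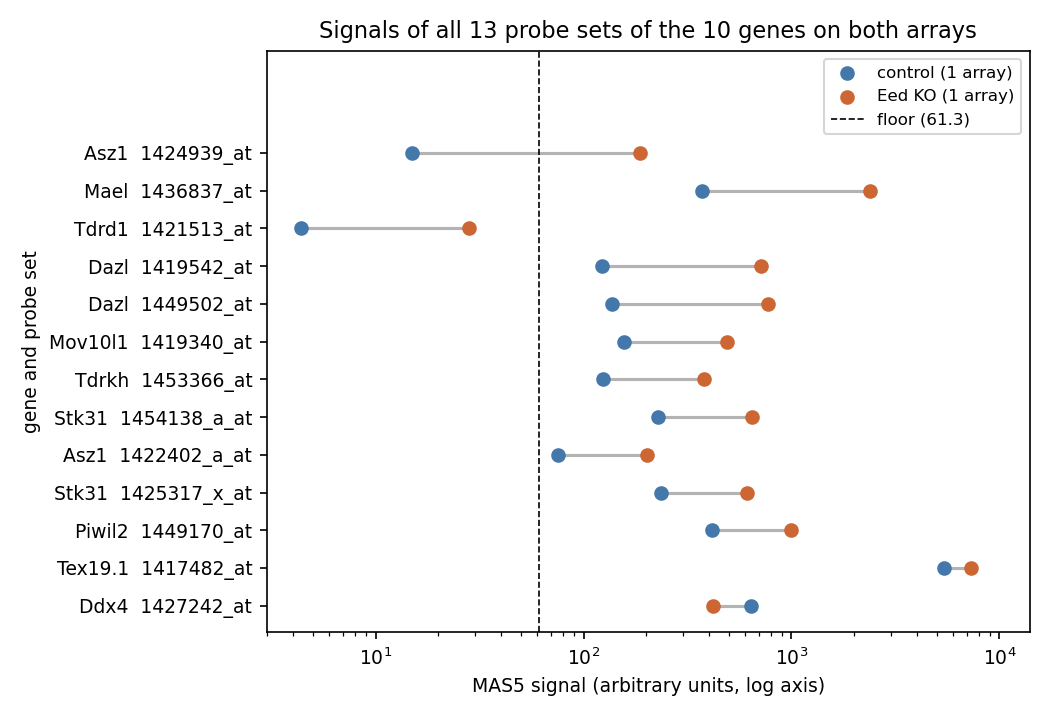
MAS5 signals (log axis, arbitrary units) of the 13 probe sets of the 10 genes on the control array (blue) and the Eed KO array (orange), each point 1 array, with the floor of 61.3 as a dashed line. The Eed KO point lies to the right in 12 of 13 probe sets, Ddx4 being the exception, and both Tdrd1 points lie under the floor.

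**Figure D3:**
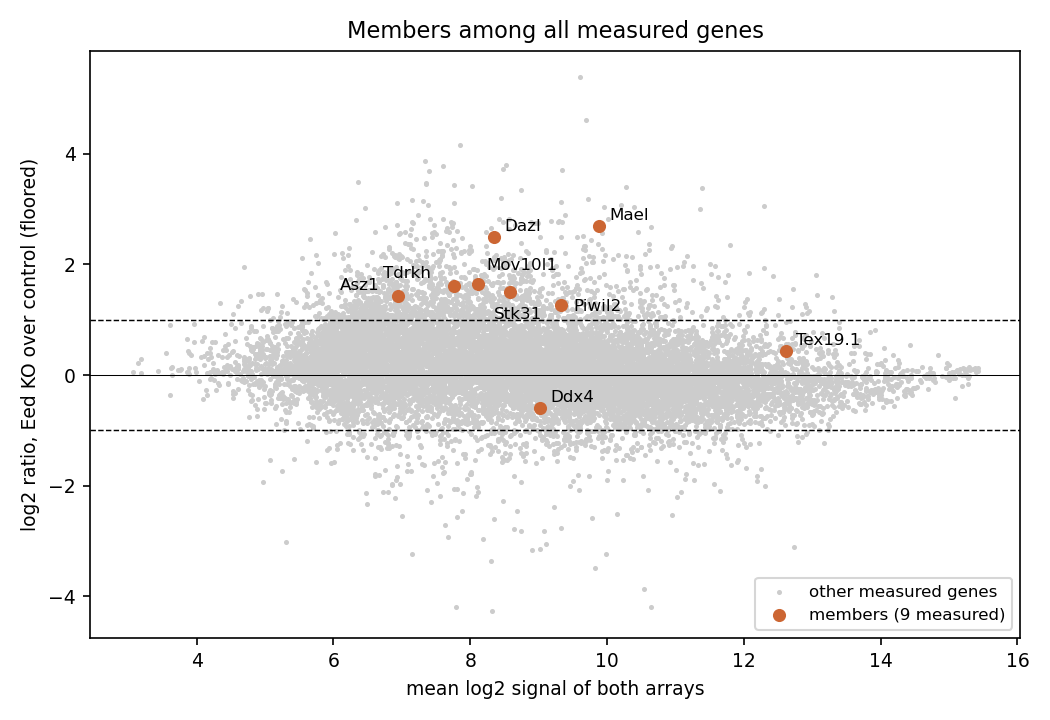
Log2 ratio of Eed KO over control against the mean log2 signal of both arrays, for the 13794 measured genes (grey) and the 9 measured members (orange), with 2-fold marked by dashed lines. Mael and Dazl stand highest among the members, 5 more lie above the upper line, and Tex19.1 and Ddx4 lie between the lines.

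Mael and Dazl had the largest ratios of the group. Mael encodes Maelstrom, a nuage protein needed for transposon silencing in the male germ line. Its single probe set, 1436837_at, read 370.6 on the control array and 2394 on the Eed KO array. This was 6.46-fold higher (log2 ratio 2.69), and 55 of the 13794 measured genes had a larger ratio. Over 10 alternative settings the Mael log2 ratio stayed between 2.38 and 2.69.

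Dazl encodes an RNA-binding protein that promotes translation in germ cells and is needed for germ cells to enter their differentiation programme. It is not a piRNA factor. Its probe set 1449502_at read 137.8 on the control array and 773.0 on the Eed KO array, and its other probe set, 1419542_at, read 122.4 and 710.6. The ratios were 5.61-fold and 5.81-fold, so that both probe sets moved alike. A larger ratio was seen for 84 measured genes. The log2 ratio was 2.49, and 2.07 at its lowest, with a pseudocount in place of the floor.

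Of the PIWI proteins, Piwil2 (Mili), which binds piRNAs and cuts RNA guided by them, was the 1 measured. Piwil2 read 412.9 on the control array and 992.5 on the Eed KO array, 2.40-fold higher, the smallest ratio among the 7 members that reached 2-fold. Its log2 ratio of 1.27 was 0.96, just under 2-fold, when the arrays were set to equal medians. The other PIWI genes on the array, Piwil1 (34.5 and 49.8) and Piwil4 (38.1 and 42.7), were under the floor on both arrays.

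Of the RNA helicases among the members, Mov10l1 was higher and Ddx4 lay within 2-fold. Mov10l1, which binds piRNA precursor transcripts and feeds them into processing, read 157.2 on the control array and 490.4 on the Eed KO array, 3.12-fold higher. Ddx4, the mouse Vasa homologue and a standard germ cell marker, read 639.7 on the control array and 420.8 on the Eed KO array, 1.52-fold lower. The Ddx4 log2 ratio was -0.60, and it lay between -0.91 and -0.54 over the 10 alternatives, within 2-fold in each. At a call size of 1.5-fold it would count as lower.

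Among the Tudor domain proteins, which bind methylated arginines of PIWI proteins, Tdrkh and Stk31 were higher. Tdrkh sits on mitochondria and takes part in trimming piRNA ends. It read 124.6 on the control array and 379.0 on the Eed KO array (3.04-fold), with a log2 ratio of 1.60 that was 1.17 under a 60th-percentile floor. Stk31, which joins a Tudor domain to a kinase-like domain, read 227.7 and 644.6 at 1454138_a_at (2.83-fold). Its other probe set, 1425317_x_at, read 235.4 and 614.2 (2.61-fold). The suffix _x_at marks a probe set that can share probes with other transcripts. Both Stk31 probe sets were therefore higher by a similar amount.

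Tdrd1, a Tudor protein that binds Piwil2, lay under the floor throughout, at 4.4 on the control array and 28.2 on the Eed KO array, and gets no ratio. It was also under the floor of 29.7 set at the 25th percentile.

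Asz1 (Gasz) is a mitochondrial scaffold of nuage with ankyrin repeats. Its probe set 1422402_a_at read 75.4 on the control array and 202.4 on the Eed KO array (2.68-fold), close to the floor in the control. The other, 1424939_at, read 15.0, under the floor, and 187.9, which is at least 3.07-fold higher. Asz1 was the member that hung most on how low signals were treated. Its log2 ratio of 1.42 was 0.95 with a pseudocount and 0.27 under a 60th-percentile floor (168.2), which lies just under its Eed KO signal.

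Tex19.1, a mammal-specific gene that restrains retrotransposons in germ cells, placenta and pluripotent cells, had high signals on both arrays. It read 5387 on the control array and 7280 on the Eed KO array, a ratio of 1.35-fold. The log2 ratio was 0.43, and 0.13 with the arrays at equal medians. Its neighbour in name, Tex19.2, read 137.5 and 308.9 (2.25-fold higher). The members thus differed among themselves: the 7 that were higher had control signals between 75.4 and 412.9, and the 2 within 2-fold had control signals of 639.7 (Ddx4) and 5387 (Tex19.1). Signals of different probe sets are not on 1 scale, so this order is a description.

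**Figure D4:**
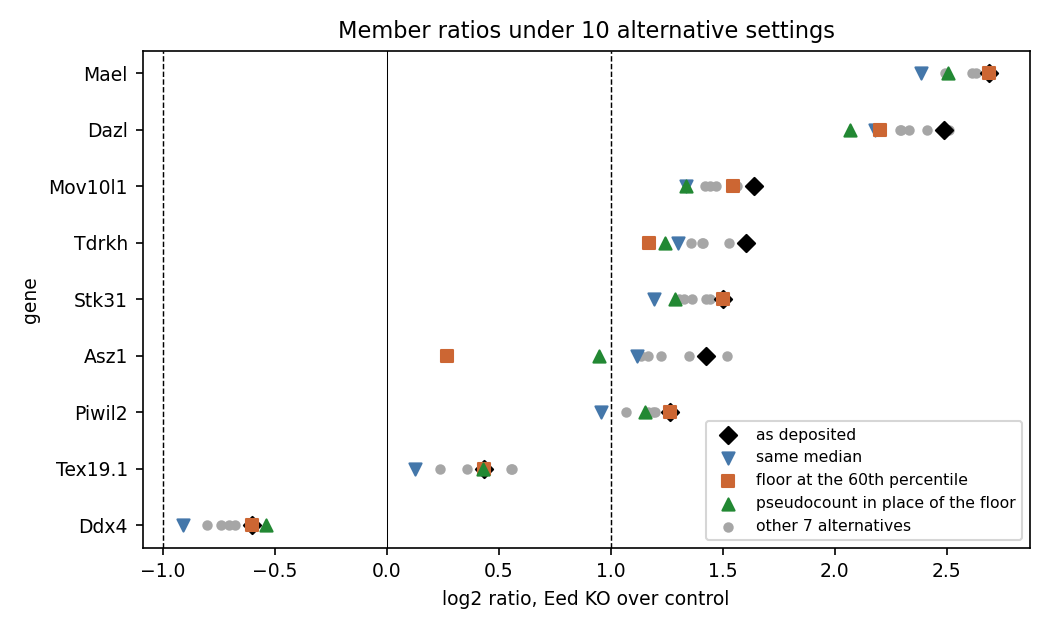
Log2 ratio (Eed KO over control) of the 9 measured members with the signals as deposited (black diamonds) and under 10 alternative settings, each point 1 setting. Asz1 reaches 0.27 under a 60th-percentile floor and Piwil2 0.96 with the arrays at equal medians. The other 5 higher members stay to the right of the 2-fold line.

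Other genes of the piRNA pathway, from a list that holds no member, were mixed. Of 20 on the array 17 were measured, with 5 at least 2-fold higher and 0 lower, against 10.8% and 3.27% of all measured genes. The higher ones were Exd1, a partner of Tdrd12 in piRNA biogenesis (70.5 to 319.1, 4.53-fold), the Tudor gene Tdrd7 (91.6 to 376.4, 4.11-fold), Gpat2, an acyltransferase that associates with Piwil2 (101.2 to 348.5, 3.44-fold), and Gtsf1, a zinc finger cofactor of PIWI proteins (189.9 to 609.7, 3.21-fold). The fifth was the piRNA methyltransferase gene Henmt1 (under the floor to 143.8, at least 2.35-fold). With a 60th-percentile floor 3 were higher, and Exd1 had a log2 ratio of 0.92. The list's median log2 ratio was 0.07, and -0.26 with the arrays at equal medians. Tdrd12 had the lowest ratio of the list, 1545.6 on the control array and 798.8 on the Eed KO array (log2 ratio -0.95). The arginine methyltransferase gene Prmt5 and its partner Wdr77, which modify PIWI proteins and many others, had log2 ratios of -0.38 and -0.45.

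Of 24 measured germ cell RNA regulators outside the members, 6 reached 2-fold higher signals and 0 lower, against 10.8% and 3.27% of all measured genes. Their median log2 ratio was 0.19, turning to -0.12 with the arrays at equal medians. Meioc, which stabilises the meiotic programme, went from 109.0 to 500.2 (4.59-fold), and the polyadenylation regulator Cpeb1 from under the floor to 267.4 (at least 4.36-fold, with 0.67 as its log2 ratio under a 60th-percentile floor). The maternal gene Ooep went from 2638 to 6844 (2.59-fold) and the helicase gene Ddx25 from 272.5 to 687.8 (2.52-fold). Between 3 and 6 genes of this list were higher over the alternatives that kept the 2-fold size, and 2 were lower with the arrays at equal medians. Lin28a had the lowest ratio of the list (log2 ratio -0.97). Dnd1, a germ cell RNA-binding protein, had a log2 ratio of -0.77.

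Among 18 measured activators of germline genes 5 were higher and 1 lower, against 10.8% and 3.27% of all measured genes. Stra8, the switch into meiosis, read 207.8 and 977.7 (4.71-fold), the germ cell factor Prdm14 277.2 and 1294 (4.67-fold), Sohlh2 408.0 and 1664 (4.08-fold) and Taf7l 104.2 and 325.2 (3.12-fold). Rhox6 (2.37-fold higher) and Dppa4 (2.33-fold lower) were the others past 2-fold. Of 25 measured regulators that silence germline genes, 21 lay within 2-fold, 0 were higher and 4 lower, against 3.27% lower of all measured genes, with a median log2 ratio of -0.44. The de novo DNA methyltransferase gene Dnmt3a was 11.2-fold lower (3052 to 271.6, and -2.00 as a mean log2 ratio of its measured probe sets). The histone H3 lysine methyltransferase gene Ehmt2 was 2.22-fold lower (4568 to 2062), Dnmt3b 2.18-fold (10849 to 4984) and Tfdp1 2.02-fold (7585 to 3758). Tfdp1 was under 2-fold in 2 of 10 alternatives, and with the arrays at equal medians 7 of the 25 genes were lower. That scaling also raised the share of all measured genes that was lower, as given with the members. Tfdp1 encodes the partner of E2F6 in the variant PRC1 complex. Other genes of this complex that lay within 2-fold were Cbx3 (log2 ratio -0.91), Pcgf6 (-0.63), L3mbtl2 (-0.31) and Mga (-0.16). Max (0.21), Wdr5 (0.24), E2f6 (0.31) and Yaf2 (0.74) lay within 2-fold with positive ratios. Ehmt1, also in the list, had a log2 ratio of -0.94.

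Markers of germ cell types were mixed, beside 10.8% higher and 3.27% lower of all measured genes. Of 11 spermatocyte markers 8 were measured and 2 were higher, Stra8 and the synaptonemal complex gene Sycp1 (66.0 to 713.7, 10.8-fold). Sycp1 was close to the floor in the control, and 4.24-fold higher under a 60th-percentile floor. Sycp3 (539.0 and 570.9) and Hormad1 (115.3 and 203.7) lay within 2-fold. Spo11 read 64.4 on the control array and was under the floor on the Eed KO array. The summed signal of the list was 1316 on the control array and 2889 on the Eed KO array. Without Stra8 that sum was 1108 and 1911. Among the list's spermatid and late spermatocyte genes, Tnp1, Prm2 and Pgk2 were under the floor on both arrays. Prm1 read 57.4 and 85.5, Acr 64.1 and 99.3 and Ldhc 148.5 and 179.3, all within 2-fold. Of 9 oocyte markers 5 were measured, with 0 higher and 1 lower (Zp3, 4.17-fold), and the summed signal was 859.0 and 565.7. Without Zp3 that sum was 417.5 and 459.7. Of 10 measured primordial germ cell markers 3 were higher, Dazl itself, Prdm14 and the receptor gene Kit (374.1 to 1116, 2.98-fold), and 0 lower, while the list's median log2 ratio was -0.36 and its summed signal 18622 and 13693. Without Ifitm3, which read 11195 and 6021 and lay within 2-fold, that sum was 7428 and 7671. With the arrays at equal medians, which raised the share lower over all genes too, 3 of these 10 were lower. Dppa3 read 2680 and 1346, 1.99-fold lower, and was at least 2-fold lower in 3 of 10 alternative settings. Dnd1 (log2 ratio -0.77) and Ddx4 (-0.60), given above, are also in this list.

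Markers of fibroblasts also had higher signals on the Eed KO array, where 10.8% of all measured genes were higher and 3.27% lower by 2-fold or more. Of 15 listed 14 were measured, with 12 at least 2-fold higher (9 with the arrays at equal medians) and 0 lower, and their summed signal was 15283 on the control array and 30002 on the Eed KO array. Without Vim that sum was 10295 and 18226. Prrx1 was 6.84-fold higher and Pdgfrb 4.92-fold, or 3.93-fold and 2.99-fold as means over their measured probe sets. Pdgfrb, close to the floor in the control, was 1.86-fold higher under a 60th-percentile floor. The marker Lum was under the floor on both arrays. Of 9 measured primitive endoderm markers 5 were higher and 0 lower (summed signal 6815 and 12900), and of 7 measured trophoblast markers 5 were higher and 0 lower (3921 and 8457). Without Sparc, which lay within 2-fold, the primitive endoderm sum was 2161.5 and 3710.4. Without Krt8 the trophoblast sum was 1249 and 2767. Under a 60th-percentile floor 2 of 8 primitive endoderm markers were higher, and with the arrays at equal medians 3 trophoblast markers were higher and 1 lower. The part of these cell types in the members' signals was not tested. In bulk RNA, more cells of a type and more RNA per cell cannot be told apart.

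**Figure D5:**
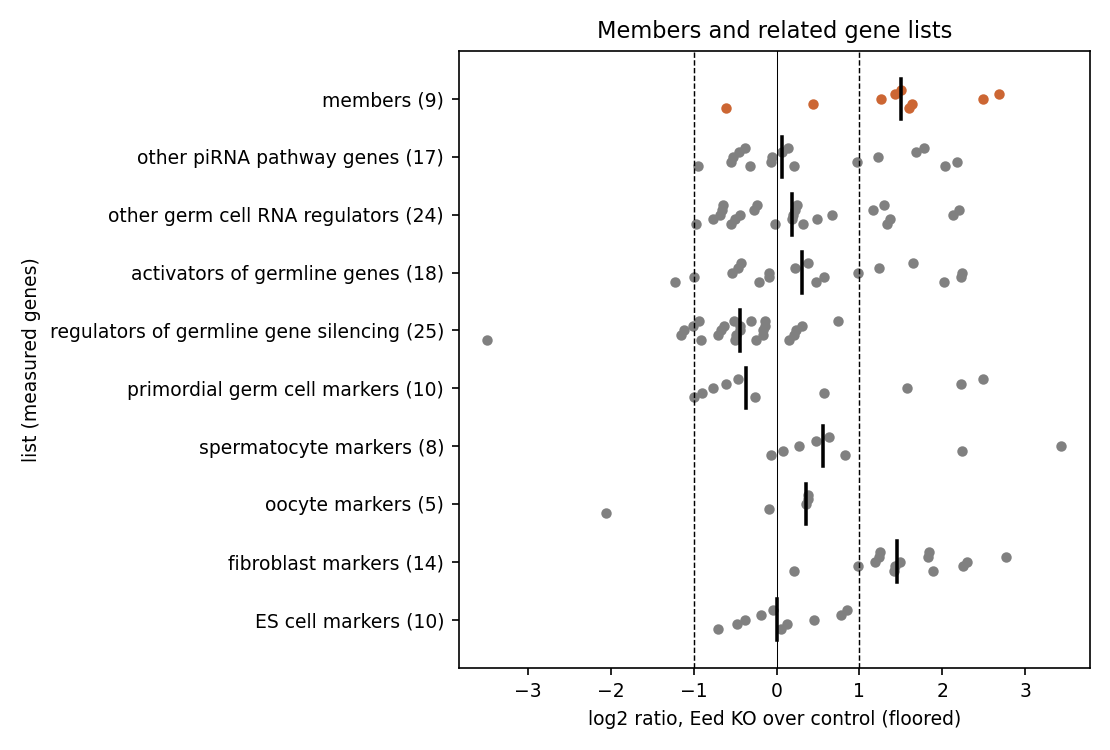
Log2 ratios (Eed KO over control) of the measured genes of each list, each point 1 gene, with the list's median as a black bar, the number of genes in brackets and 2-fold as dashed lines. The members' median lies at 1.501, near that of the fibroblast markers at 1.46, and those of the other piRNA pathway genes and of the silencing regulators lie at 0.07 and -0.44.

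The genes whose signals lay nearest to those of Mael, the member with the highest mean log2 signal among those that reached 2-fold, were Xaf1 (400.8 to 2382), Emp1 (389.5 to 2768) and Hebp1 (413.4 to 2125). Likeness was the Euclidean distance over the log2 signals of the 2 arrays, which was 0.11, 0.22 and 0.23, and rests on 2 samples only. It sets signals of different probe sets side by side, so it is a description by a fixed rule and shows no likeness in level.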

How the data were processed

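Total RNA of 2 ES cell samples, 1 control and 1 Eed KO, was labelled with biotin and hybridized to 1 array each. The deposited values are linear intensities, 1 a probe set, from MAS5 as the authors ran it, per the submitters' processing notes, with no version given there. With the top and bottom 2% of probe sets trimmed, the mean was 500.0 on both arrays, so scaling was done before deposit. Detection calls were not used here. Of 45101 probe sets, 34945 had 1 gene symbol in the platform annotation, and 932 with several were not named.

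Where a gene had several probe sets, the one of highest mean log2 signal stood for it. Signals under the floor (40th percentile) were raised to it, so that their ratios are lower bounds ("at least"). A difference of 2-fold was called. Values were computed with Python 3.11.15, pandas 2.3.3 and statsmodels 0.14.6. As there was 1 array a group, no p-value was computed, and the number of arrays limits the precision.

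The alternatives changed the scaling (equal medians, quantile normalization, a lowess trend of span 0.3 removed, or scaling on 18 hybridization or 24 poly-A spike probe sets), the treatment of low signals (25th-percentile or 60th-percentile floor, or a pseudocount equal to the floor) and the probe sets (a mean over those of a gene, or none with the suffix _x_at or _s_at). Means over probe sets took only those above the floor on at least 1 array. Calls were also made at 1.5-fold and 3-fold. The rule for named genes took all members, Eed, up to 4 measured genes of each list with the largest absolute log2 ratio, and the 3 genes nearest to the brightest called member. Piwil1, Piwil4, Tex19.2, Henmt1, Prmt5, Wdr77, Dnd1, Rhox6, Dppa4, Pcgf6, L3mbtl2, Mga, Max, E2f6, Tnp1, Prm2, Pgk2, Lum, Prm1, Ldhc, Ifitm3, Cbx3, Wdr5, Yaf2, Sycp3, Spo11, Vim, Sparc and Tdrd9 lie outside this rule and were picked after their values were seen. Tdrd12, Lin28a, Ehmt1 and Spz1 were picked in the same way. Members, lists and rules were chosen with earlier results of these data known.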

Additional observations from a re-analysis of the deposited data

How the results depend on the processing

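Over 10 alternatives of scaling, floor and probe set choice, all 90 member ratios kept their sign and 87 their side of 2-fold. The 3 that did not were Asz1 with a pseudocount and under a 60th-percentile floor, and Piwil2 with the arrays at equal medians. The median log2 ratio of the members ran from 1.19 to 1.52, and 6 or 7 members were at least 2-fold higher in each of these settings. At a call size of 3-fold 4 members were higher, and at 1.5-fold 1 member (Ddx4) was lower. Tdrd1 was not measured under any of them. No paired analysis was possible because each group has 1 array. The members near the floor, Asz1 above all, are those whose ratio the signal over background limits most.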

Other observations

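Across the array, the share of genes with CACGTG in the 250 bases before the start hardly differed with the direction of change. It was 8.48% of the 1156 genes higher by 2-fold or more, 6.74% of the 356 lower by as much and 8.40% of all 11097 measured genes with a window. Among windows with an observed over expected CpG ratio of at least 0.6 it was 11.1% of the higher genes and 9.96% of all. No test was made. Of the 6 higher members with a window, 3 held the hexamer. Outside the members it stood in 3 of 9 spermatocyte markers with a window (Sycp1, Sycp3 and Hormad1), in 2 of 15 other piRNA pathway genes (Piwil1 and Tdrd9) in 5 of 22 other germ cell RNA regulators, in 2 of 23 silencing regulators, in 2 of 14 activators, in 1 of 6 oocyte markers and in 1 of 8 trophoblast markers. It stood in 0 of 9 ES cell, 0 of 9 fibroblast, 0 of 4 primordial germ cell, 0 of 3 2-cell stage and 0 of 4 primitive endoderm markers.

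Some genes of the 2-cell stage embryo were higher in the same array. Tcstv1 went to 555.0 on the Eed KO array (5.55-fold), Zfp352 from 75.4 to 356.9 (4.73-fold) and Tcstv3 from under the floor to 195.9 (at least 3.20-fold, or 0.22 on the log2 scale under a 60th-percentile floor). Of the 11 markers listed for that state 5 were matched on the array and counted as measured. Zscan4c, Zscan4d, Zscan4f and Usp17lc were among the listed markers not matched. Only 2 of the 5 were above the floor on both arrays, and the others passed it through the Eed KO array alone. At least 2-fold higher were 3 of the 5, against 10.8% of all measured genes. Tdpoz1 (log2 ratio 0.18) and Spz1 (0.08), both under the floor in the control, were within 2-fold by these lower bounds. Under a 60th-percentile floor 3 were measured and 2 were higher.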
